A study of Mus musculus with 4 samples.

Results

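Genes of blood clotting and clot breakdown were compared between livers of IlrunKO and wild-type (WT) mice. The 35 genes were chosen by name, as factors, inhibitors and cofactors of coagulation and fibrinolysis, and their probes were found by gene symbol or by the symbol of the transcript accession. They take up 47 of the 39429 probes and 35 of the 31709 genes on the array. By role, 19 are procoagulant, 10 anticoagulant and 6 fibrinolytic. The fibrinolytic role includes Cpb2 and Serpinf2, whose products inhibit clot breakdown. Liver RNA came from 4 male IlrunKO mice, which lack Ilrun in the whole body, and 4 male WT mice, all C57BL/6, kept on chow and fasted for 4 h. Each of the 4 two-colour arrays held 1 IlrunKO and 1 WT liver, and the dyes were swapped: IlrunKO RNA was labelled red (Cy5) for arrays 1 and 2, and green (Cy3) for arrays 3 and 4. Age, litter and any pooling of mice are not given in the labels, so the spread between samples is taken as that between mice.

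Clotting is a chain of protease activations that ends when thrombin cuts fibrinogen into fibrin. Hepatocytes secrete most of these proteases as inactive precursors, together with fibrinogen and the main inhibitors, while endothelial cells supply von Willebrand factor, factor VIII, thrombomodulin and tissue factor pathway inhibitor. Several of the precursors need vitamin K to mature, and fibrinogen is also an acute phase protein, made in larger amounts by the liver when interleukin-6 is released in inflammation. Plasmin, cut from plasminogen, dissolves fibrin again. Ilrun is known as a regulator of inflammation and of lipid metabolism.

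Values are given as the log2 ratio of IlrunKO over WT on each array, where a value below 0 means less RNA in the IlrunKO liver, or as the log2 intensity of 1 liver, a level that compares livers for the same probe but not 1 gene with another. The words rose and fell are kept for genes to which limma, fitted over all genes, gave an adjusted p under 0.05. A probe counts as well above background where the scanner software marked it so.

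The labels were first checked against Ilrun itself, listed in the files under its older name D17Wsu92e. Its brighter probe (chr17:27888506-27888565, mm9) had log2 ratios of IlrunKO over WT of -4.12, -4.11, -4.04 and -4.56 on arrays 1 to 4, an 18.5-fold fall (adjusted p = 0.00332, limma). The dimmer probe (chr17:27930857-27930916, mm9) averaged -2.15 ± 0.34 (SD, n = 4 arrays), and was well above background in only 1 of 4 IlrunKO channels, against 4 of 4 WT channels. Every channel looked like liver. All 12 hepatocyte markers were well above background, and their summed intensity was 892618 to 1412500 in IlrunKO livers and 1121540 to 1514070 in WT livers. Of 12 platelet markers 9 could be tested, with a median log2 ratio of 0.01.

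Upstream regions are shown for 5 genes picked by their values, none of which rose or fell. The genes are the 3 fibrinogen chains, whose ratios shared their sign on every array, and F11 and Cpb2, the 2 members whose levels separated the genotypes. Each region is the 250 bases before the start used in the promoter set, read 5′ to 3′ on the gene's strand, from RefSeq on GRCm38.p6. For Fga, Fgb, Fgg and Cpb2 the window ends where the listed gene begins. The listed F11 gene, on the minus strand, reaches chr8:45262055, so its window, from chr8:45262032, overlaps the gene. Of the 35 genes, 27 have an entry in that set. Capitals mark CTGGGA, the core of an element that carries the interleukin-6 response of fibrinogen genes in rat, searched on both strands.
Fga (chr3:83025903-83026152, plus strand): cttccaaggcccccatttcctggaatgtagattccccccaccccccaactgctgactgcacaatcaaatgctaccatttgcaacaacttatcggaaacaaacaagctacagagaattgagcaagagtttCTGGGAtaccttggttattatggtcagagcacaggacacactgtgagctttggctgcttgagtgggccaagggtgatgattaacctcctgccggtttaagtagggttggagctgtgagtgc
Fgb (chr3:83049864-83050113, minus strand): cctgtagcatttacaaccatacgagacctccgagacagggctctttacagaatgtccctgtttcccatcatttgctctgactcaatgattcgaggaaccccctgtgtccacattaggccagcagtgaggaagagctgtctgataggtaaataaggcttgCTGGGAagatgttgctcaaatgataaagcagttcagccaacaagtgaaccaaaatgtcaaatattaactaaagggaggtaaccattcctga
Fgg (chr3:83007474-83007723, plus strand): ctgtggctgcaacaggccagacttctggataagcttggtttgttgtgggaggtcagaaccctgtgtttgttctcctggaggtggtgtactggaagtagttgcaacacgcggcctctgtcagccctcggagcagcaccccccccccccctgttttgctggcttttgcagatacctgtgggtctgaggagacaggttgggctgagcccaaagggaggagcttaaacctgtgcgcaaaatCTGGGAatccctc
F11 (chr8:45262032-45262281, minus strand): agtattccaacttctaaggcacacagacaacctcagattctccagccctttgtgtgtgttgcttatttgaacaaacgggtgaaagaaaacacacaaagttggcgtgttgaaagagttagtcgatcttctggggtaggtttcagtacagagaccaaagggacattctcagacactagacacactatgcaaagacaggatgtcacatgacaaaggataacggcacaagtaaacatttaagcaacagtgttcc
Cpb2 (chr14:75242037-75242286, plus strand): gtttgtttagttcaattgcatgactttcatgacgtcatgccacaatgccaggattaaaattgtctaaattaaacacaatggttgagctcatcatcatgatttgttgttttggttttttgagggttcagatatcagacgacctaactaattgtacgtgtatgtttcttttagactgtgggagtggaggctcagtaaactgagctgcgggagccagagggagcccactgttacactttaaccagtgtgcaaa
CTGGGA lies 121 to 116 bases before the start of Fga, 91 to 86 bases before that of Fgb and 13 to 8 bases before that of Fgg, and does not occur in these windows of F11 and Cpb2. Over all 32851 windows of this length 27% hold it, and 12 of the 27 members do. A second pattern, TTGCNNAA, a loose form of the site read by C/EBP factors, does not overlap any CTGGGA shown. It lies 135 to 128 bases before the start of Fga and 80 to 73 before that of Fgb. In F11 it lies 17 to 10 bases before the start used in the set, which is inside the listed gene. The pattern is held by 9.56% of all windows and 9 of the 27 members. A match describes the letters only, and binding was not measured.

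No coagulation or fibrinolysis gene passed the test between the genotypes. Of 19655 genes tested by limma, 270 (1.37%) had an adjusted p under 0.05, and 0 of the 31 members tested did. At an unadjusted p under 0.05, 5 of 31 members (16.1%) were counted, near the share over all genes (4031 genes, 20.5%). All 5 lay below 0 in IlrunKO (F11, Cpb2, Proc, Tfpi and F13b), where 9.87% of all genes were counted as lower and 10.6% as higher. The same 5 genes were below 0 on all 4 arrays (16.1% of members, against 11.5% of all genes). Counting either sign, 6 members kept 1 sign throughout (19.4%, against 23.2%), with Serpind1 as the only one above 0. The median log2 ratio of the 31 members was -0.07, with 12 above and 19 below 0, against -0.00 over all genes, and the members lay between -0.50 and 0.13. Fitted without array 1 the median was 0.04. The medians on arrays 3 and 4 (-0.17 and -0.15) lay below 0 like that on array 1 (-0.14). The fit keeps the dye term, so without array 1, array 2 alone stood for IlrunKO in Cy5. It then weighed as much as arrays 3 and 4 together. Array 2 alone had a median above 0 (0.20). With median centring in place of loess the fitted median was -0.20, and that over all genes was -0.05. Without array 1 the medians by role were 0.04 for procoagulant, 0.09 for anticoagulant and 0.08 for fibrinolytic genes.

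**Figure D1:**
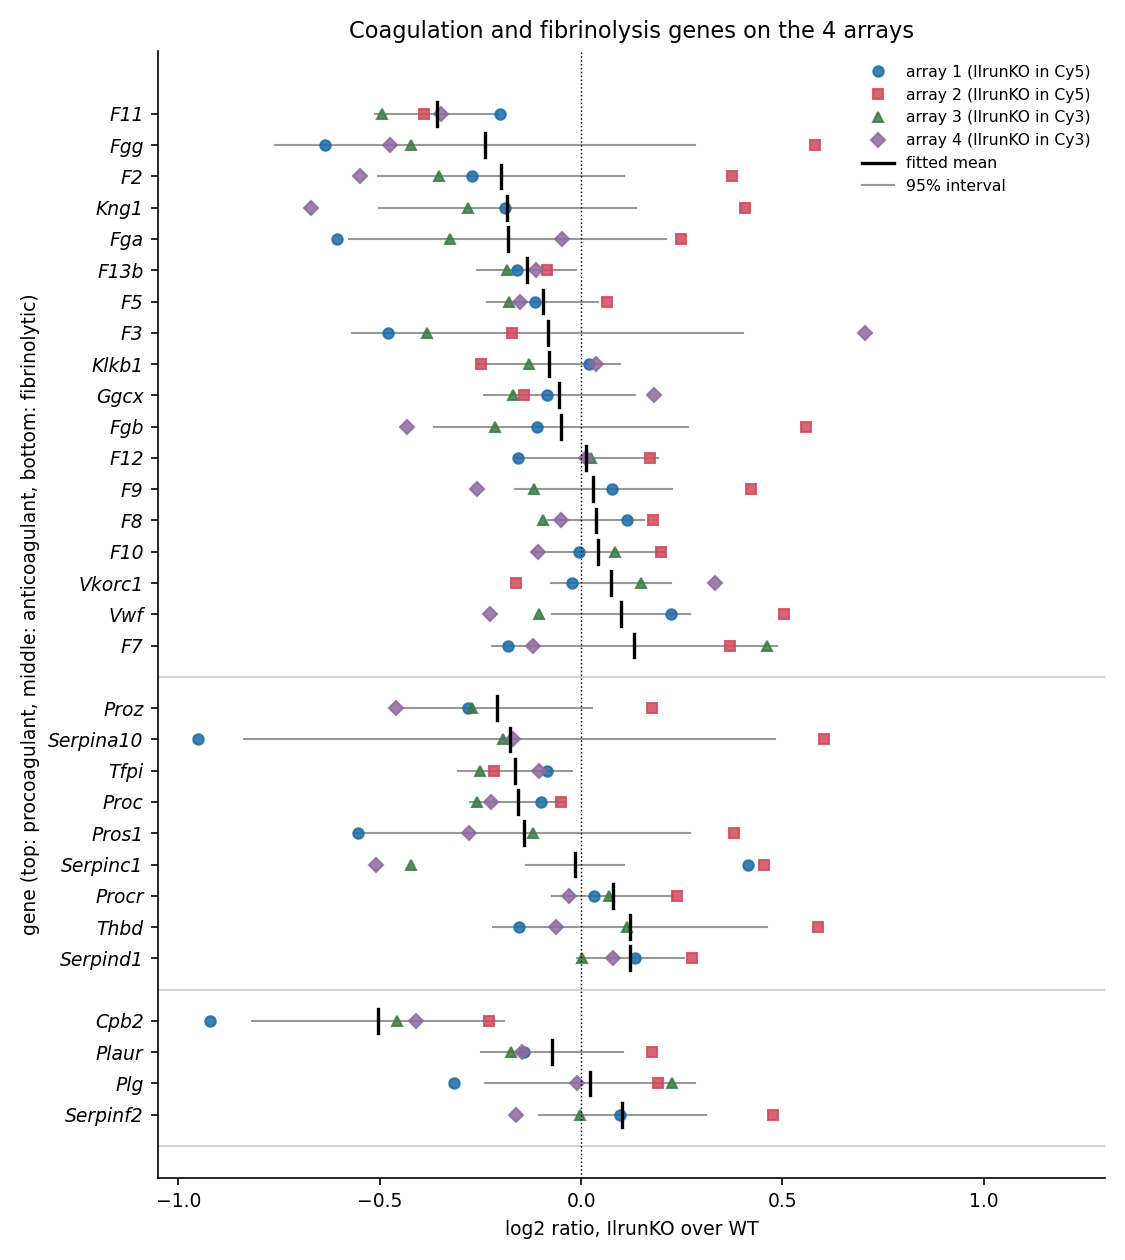
Log2 ratio of IlrunKO over WT (x axis) for each of the 31 tested members (y axis), grouped as procoagulant, anticoagulant and fibrinolytic from top to bottom. Symbols are the 4 arrays, black ticks the fitted mean and grey lines its 95% interval. F11 and Cpb2 lie below 0 on all 4 arrays, while array 2 alone lies above 0 for Fgg, F2, Kng1 and others.

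The precision was enough to limit most members to small differences. For 28 of 31 members (90.3%) the whole 95% interval lay within 1.5-fold of no difference, as for 93.1% of all genes. The 3 members with wider intervals were Cpb2, Fgg and Serpina10. The fit takes out the difference between the dye orientations, so a gene such as Serpinc1 has a narrow interval although its array values lie far apart. A missed threshold does not show equal levels.

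F11 and Cpb2 were the members with the smallest p. F11 encodes factor XI, a protease that thrombin and factor XII activate and that sustains thrombin formation. Its log2 ratios on arrays 1 to 4 were -0.20, -0.39, -0.49 and -0.35, a mean of -0.36 with a standard error of 0.06 (1.28-fold, adjusted p = 0.0722). Per liver, its log2 intensity was 12.52, 12.37, 12.23 and 12.31 in IlrunKO mice 1 to 4, against 12.72, 12.76, 12.72 and 12.66 in WT mice 1 to 4. All 4 IlrunKO livers were below all 4 WT livers, and the WT livers lay close together. Klkb1, the prekallikrein gene, lies beside F11 on chromosome 8 (F11 chr8:45240659-45262055, Klkb1 chr8:45266688-45294835, GRCm38.p6) and arose with it by gene duplication. Its log2 ratio was -0.08 (adjusted p = 0.575), with 2 arrays above and 2 below 0. The difference between the neighbours was not tested.

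Cpb2 encodes the thrombin-activatable fibrinolysis inhibitor, a carboxypeptidase that trims fibrin so that less plasminogen binds. Its log2 ratios were -0.92, -0.23, -0.46 and -0.41, a mean of -0.50 with a standard error of 0.12 (1.42-fold, adjusted p = 0.121). Levels were 13.83, 14.31, 14.08 and 14.20 in IlrunKO livers, against 14.75, 14.54, 14.53 and 14.61 in WT livers. Again the genotypes did not overlap, with IlrunKO mouse 1 the lowest and WT mouse 1 the highest of the 8 livers. Levels failed to overlap for 2 of 31 members (6.45%), against 8.9% of all genes, so such a separation was no more frequent among the members. RNA of a whole liver cannot tell apart fewer cells of a type and less RNA per cell.

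**Figure D2:**
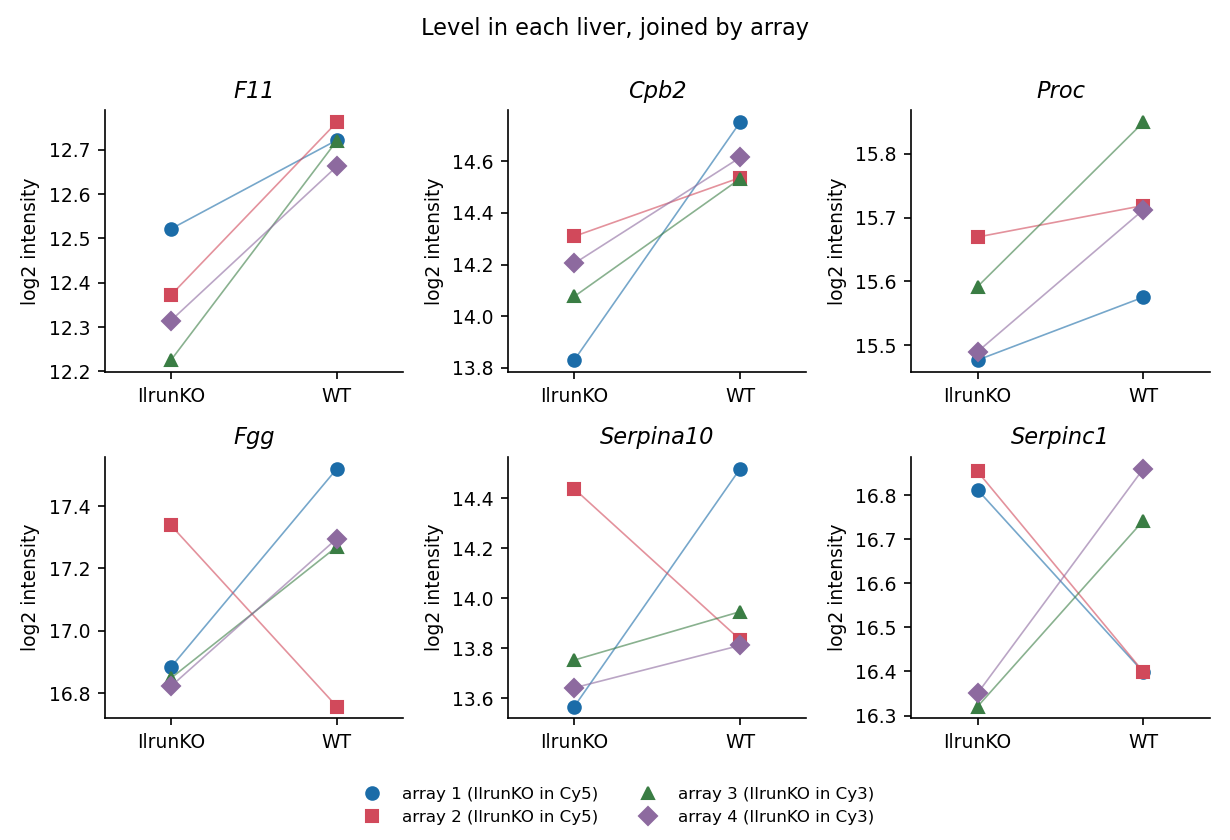
Log2 intensity (y axis) of 6 members in each liver, IlrunKO on the left and WT on the right, with a line joining the 2 livers of 1 array. F11 and Cpb2 separate the genotypes. Fgg and Serpina10 run the other way on array 2, and Serpinc1 runs 1 way on arrays 1 and 2 and the other way on arrays 3 and 4.

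Among the procoagulant genes, 18 of 19 could be tested, with 7 above and 11 below 0 and a median log2 ratio of -0.07. The fibrinogen chains Fga, Fgb and Fgg lie together on chromosome 3 and build a single protein of paired chains. Fga had log2 ratios of -0.61, 0.25, -0.33 and -0.05 on arrays 1 to 4, Fgb -0.11, 0.56, -0.21 and -0.43, and Fgg -0.64, 0.58, -0.42 and -0.47. All 3 chains were above 0 on array 2 and below 0 on the other 3 arrays. Their fitted log2 ratios were -0.18, -0.05 and -0.24 with standard errors of 0.15, 0.12 and 0.20, and adjusted p of 0.565, 0.869 and 0.575. The log2 level of Fgg was 16.88, 17.34, 16.85 and 16.82 in IlrunKO mice 1 to 4, against 17.52, 16.76, 17.27 and 17.30 in WT mice 1 to 4. On array 2 the IlrunKO liver was the highest of its group and the WT liver the lowest of its group, so both livers set the reversal.

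Factor XIII crosslinks fibrin. F13b, its carrier subunit, had log2 ratios of -0.16, -0.09, -0.18 and -0.11, a mean of -0.13 with a standard error of 0.05 (adjusted p = 0.213). It is the member measured most often, with 10 spots of its probe on each array. Over those 10 spots the SD of the log2 ratio was 0.0648, 0.0875, 0.0806 and 0.0815 on arrays 1 to 4, and the spot medians were -0.14, -0.06, -0.18 and -0.09. The means of the 10 spots had an SD of 0.04 over the 4 arrays. F13a1, the catalytic subunit, made by macrophages and megakaryocytes, was well above background in 0 of 4 IlrunKO and 0 of 4 WT channels with either of its 2 probes, and was not tested.

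The vitamin K-dependent clotting proteases showed no shared direction. F2, the prothrombin gene, had log2 ratios of -0.27, 0.38, -0.35 and -0.55, a mean of -0.20 with a standard error of 0.12 (adjusted p = 0.416). Its array 2 value again stood apart, with levels of 15.88, 16.21, 15.83 and 15.74 in IlrunKO livers, against 16.15, 15.83, 16.19 and 16.29 in WT livers. F7, F9 and F10, the factors of the tissue factor route and of the tenase complexes, lay at 0.13, 0.03 and 0.04 (adjusted p = 0.649, 0.868 and 0.765). F7 had the same 0.13 from both of its probes, with arrays 2 and 3 above 0 and arrays 1 and 4 below 0. Taken over all roles, the 7 vitamin K-dependent proteins had a median of -0.14, with 3 above and 4 below 0. Ggcx, the carboxylase that matures them, lay at -0.05 (adjusted p = 0.739), and Vkorc1, the warfarin-sensitive reductase that recycles vitamin K, at 0.07 (adjusted p = 0.540).

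The contact factors start clotting on charged surfaces. Besides F11 and Klkb1 they include F12, at 0.01 (adjusted p = 0.939), and Kng1, the kininogen that carries both F11 and Klkb1 products and yields bradykinin. The brighter Kng1 probe had log2 ratios of -0.19, 0.41, -0.28 and -0.67, a mean of -0.18 with a standard error of 0.12 (adjusted p = 0.474). A second Kng1 probe, designed on another transcript of the gene, stayed between -0.12 and 0.03, with a mean of -0.03. Kng1 and its copy Kng2 are similar in sequence, so the probes may share signal. Kng2 itself had levels of 14.77, 15.12, 14.92 and 14.62 in IlrunKO livers, against 15.05, 14.89, 15.01 and 15.05 in WT livers, again with array 2 opposite to the rest.

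Of the cofactors, F5 had log2 ratios of -0.12, 0.07, -0.18 and -0.15, a mean of -0.10 with a standard error of 0.05 (adjusted p = 0.392). F5 encodes factor V, the cofactor of factor X in prothrombin activation. The dimmer F5 probe lay at -0.16, -0.02, 0.24 and -0.19, above 0 on array 3 and not on array 2. Vwf, the carrier of factor VIII, had log2 ratios of 0.22 and 0.50 with IlrunKO in Cy5, and -0.10 and -0.23 with IlrunKO in Cy3 (mean 0.10, adjusted p = 0.473). F8 lay at 0.04 (adjusted p = 0.715) with the same division by dye on its brighter probe, while its dimmer probe was above 0 on all 4 arrays. F3, the tissue factor gene that starts clotting outside vessels, had a wide spread on its brighter probe, with -0.48, -0.17, -0.38 and 0.70 (adjusted p = 0.854). Its dimmer probe spread less, with -0.06, -0.10, -0.04 and 0.26 and a mean of 0.01.

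Of the endothelial markers beside Vwf and F8, 12 of 13 lay below 0, with a median of -0.08, and 0 of 13 passed (3 at an unadjusted p under 0.05, limma). Their summed intensity was 28662 to 33537 in IlrunKO livers and 30838 to 34046 in WT livers. Their part in the values of Vwf, F8, Thbd, Procr and Tfpi was not tested.

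Among the anticoagulant genes 9 of 10 could be tested, with 3 above and 6 below 0 and a median log2 ratio of -0.14. Proc encodes protein C, which when activated by thrombin on thrombomodulin destroys factors V and VIII. Its log2 ratios were -0.10, -0.05, -0.26 and -0.22, a mean of -0.16 with a standard error of 0.05 (1.12-fold, adjusted p = 0.162). Levels were 15.48, 15.67, 15.59 and 15.49 in IlrunKO livers, against 15.58, 15.72, 15.85 and 15.71 in WT livers. Each IlrunKO liver was below its WT partner, yet the groups overlapped, since IlrunKO mice 2 and 3 were above WT mouse 1. Tfpi, which blocks the tissue factor and factor VIIa complex, had log2 ratios of -0.08, -0.22, -0.25 and -0.11, a mean of -0.16 with a standard error of 0.05 (1.12-fold, adjusted p = 0.197). Its dimmer probe lay at 0.12, -0.07, -0.25 and -0.21, with array 1 of the other sign.

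Serpind1, heparin cofactor II, was the member above 0 on all 4 arrays, at 0.13, 0.28, 0.00 and 0.08, a mean of 0.12 with a standard error of 0.05 (1.09-fold, adjusted p = 0.274). Its levels were 15.26, 15.32, 15.27 and 15.07 in IlrunKO livers, against 15.13, 15.05, 15.27 and 14.99 in WT livers, and the groups overlapped. Serpinc1, antithrombin, the main inhibitor of thrombin and factor Xa, divided by dye. Its log2 ratios were 0.41 and 0.45 on arrays 1 and 2 and -0.42 and -0.51 on arrays 3 and 4, so that the fitted mean was -0.02 (adjusted p = 0.892). IlrunKO levels were 16.81, 16.85, 16.32 and 16.35, against WT levels of 16.40, 16.40, 16.74 and 16.86, and in both genotypes the channel in Cy5 read higher than the channel in Cy3. Such a division of signs by dye orientation was found for 6 of 31 members (19.4%, against 23% of all genes): F8, F9, Vwf, Vkorc1, Serpinc1 and Serpinf2.

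Proz and Serpina10 act as a pair, protein Z being the cofactor with which the protein Z-dependent inhibitor stops factor Xa. Serpina10 had the widest spread of the members, with log2 ratios of -0.95, 0.60, -0.19 and -0.17 (SD 0.63, n = 4 arrays, adjusted p = 0.755). Its second probe gave -0.91, 0.48, -0.04 and -0.21, so the spread was shared by both probes. Serpina10 levels were 13.57, 14.44, 13.75 and 13.64 in IlrunKO livers, against 14.52, 13.83, 13.95 and 13.81 in WT livers. IlrunKO mouse 2 and WT mouse 1 stood above the other 6 livers. The 2 probes of Proz differed in sign, at -0.21 with a standard error of 0.09 for the brighter (adjusted p = 0.289) and 0.03 for the dimmer. Both were lower on array 4 than on array 2.

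Pros1, protein S, the cofactor of activated protein C, had log2 ratios of -0.55, 0.38, -0.12 and -0.28 (mean -0.14, adjusted p = 0.675). Procr, the receptor that presents protein C, lay at 0.03, 0.24, 0.07 and -0.03 (mean 0.08 with a standard error of 0.06, adjusted p = 0.516), and Thbd, thrombomodulin, at 0.12 (adjusted p = 0.663). Serpina5, the protein C inhibitor, is known in mice mainly from the reproductive tract, and was well above background in 2 of 4 IlrunKO and 1 of 4 WT channels, too few to be tested.

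Among the fibrinolytic genes 4 of 6 could be tested, 2 above and 2 below 0. Since Cpb2 and Serpinf2 encode inhibitors of clot breakdown, the pooled sign and median give no direction for fibrinolysis. Plg, plasminogen, had log2 ratios of -0.32, 0.19, 0.23 and -0.01, a mean of 0.02 with a standard error of 0.10 (adjusted p = 0.928). The WT levels of Plg lay within 15.28 to 15.31, while the IlrunKO levels were 14.99, 15.50, 15.54 and 15.27, on both sides of them. Serpinf2, the fast inhibitor of plasmin, lay at 0.10 (adjusted p = 0.542), and Plaur, the urokinase receptor, at -0.07 with a standard error of 0.07 (adjusted p = 0.622). The activator genes Plat and Plau were well above background in 0 of 4 IlrunKO and 0 of 4 WT channels, so their levels in these livers carry only an upper bound and no ratio is given.

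**Figure D3:**
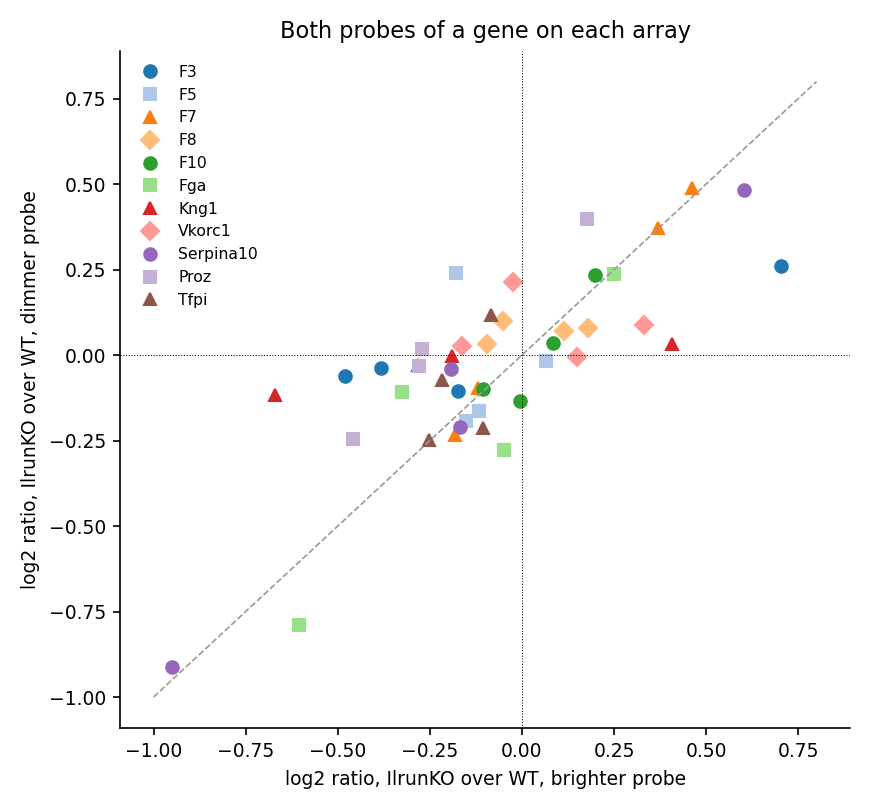
Log2 ratio of IlrunKO over WT from the brighter (x axis) and the dimmer (y axis) probe of the 11 tested members with 2 probes, 1 point for each array; the dashed line marks equal values. The probes of Serpina10 and F7 lie near the line, while those of Kng1 lie flat along the x axis.

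The sign of the members differed by array. On array 1, 8 were above and 23 below 0, on array 2, 22 above and 9 below, on array 3, 8 above and 23 below, and on array 4, 6 above and 25 below. The median log2 ratio of the 31 members was -0.14, 0.20, -0.17 and -0.15 on arrays 1 to 4, against 0.01, 0.01, -0.02 and -0.01 over all genes. On array 2 alone, 10 members were above 0 and on the other 3 arrays below it (32.3%, against 5.52% of all genes): F2, F5, Fga, Fgb, Fgg, Kng1, Serpina10, Pros1, Proz and Plaur. The count uses the brightest probe of each gene, and the dimmer probes of F5 and Proz did not follow this pattern. This count was read off after the values were seen, and the genes share livers, so it describes 1 pair of mice. For comparison, 0 members were above 0 on array 1 alone, 0 on array 3 alone and 2 on array 4 alone, against 5.22%, 3.92% and 6.75% of all genes. The pattern was not particular to the members. The 34 further protease inhibitors and regulators of clotting described below had medians of -0.11, 0.27, -0.09 and -0.21 on arrays 1 to 4, also above 0 on array 2 only.

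Acute phase genes also had their highest median on array 2. Over 22 genes of interleukin-6 signalling and the acute phase, the median log2 ratio was -0.87, 0.92, 0.35 and -0.04 on arrays 1 to 4, and 0 of 22 passed (4 at an unadjusted p under 0.05, limma). The fibrinogen median was -0.61, 0.56, -0.33 and -0.43, so the lists had the same sign on arrays 1, 2 and 4 and opposite signs on array 3. The serum amyloid gene Saa1, a major acute phase gene of mouse liver, had levels of 13.19, 16.58, 14.62 and 12.95 in IlrunKO mice 1 to 4, against 14.50, 12.62, 12.68 and 12.96 in WT mice 1 to 4. IlrunKO mouse 2 and WT mouse 1 were the highest of their groups for Saa1, as they were for Fga, Fgg and Serpina10. Saa1 itself did not pass (adjusted p = 0.546, limma). The genes of the list with the smallest p went both ways. Crp lay at -0.42, below 0 on all 4 arrays, and Orm3 at 1.95, above 0 on all 4. Saa3 lay at 0.72, above 0 on 3 arrays. For Orm3 the same mice were the highest, but for Crp and Saa3 IlrunKO mouse 4 was the highest of its group. Whether the inflammatory state of IlrunKO mouse 2 and WT mouse 1 bears on the members was not tested.

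**Figure D4:**
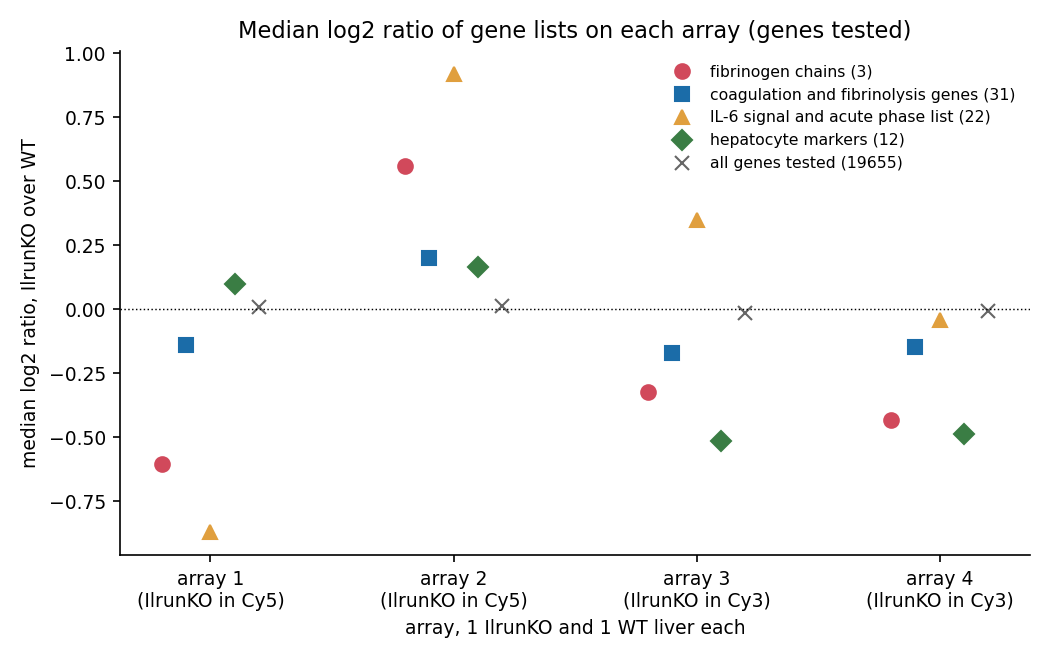
Median log2 ratio of IlrunKO over WT (y axis) on each array (x axis) for the 3 fibrinogen chains, the 31 members, the acute phase list, hepatocyte markers and all genes tested. The fibrinogen chains and the members lie above 0 on array 2 only. The hepatocyte median lies above 0 on arrays 1 and 2 and below 0 on arrays 3 and 4.

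Without array 2, 251 of 19655 genes passed, and the call of 3 of 31 members changed. Without it Fgg lay at -0.54 (adjusted p = 0.0489), Serpina10 at -0.57 (adjusted p = 0.0441) and Cpb2 at -0.68 (adjusted p = 0.0351), all lower in IlrunKO, with the spread then resting on arrays 3 and 4 alone. Without array 1 the first 2 turned to 0.07 for Fgg and 0.21 for Serpina10. In that fit array 2 weighed as much as arrays 3 and 4 together, since the dye term was kept. The sign of both genes was set by whether array 1 or array 2 entered. F11 stayed between -0.41 and -0.31 whichever array was left out, with adjusted p of 0.074 to 0.259, and Cpb2 between -0.68 and -0.33.

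The median of the 12 hepatocyte markers differed between the dye orientations. It was 0.10 and 0.17 on arrays 1 and 2 and -0.51 and -0.49 on arrays 3 and 4, with 2 of 12 above 0 and 0 passing (7 at an unadjusted p under 0.05, limma). Albumin lay at 0.54, 0.21, -1.07 and -1.11 on arrays 1 to 4. Not all markers did so: Apoa1 and Apob were below 0 and Asgr1 above 0 on all 4 arrays, and Hnf4a ran the other way, at -0.47, -0.34, 0.18 and 0.11. Stellate cell markers were below 0 for 12 of 12 genes (median -0.30, 9 at an unadjusted p under 0.05, 0 passing), with a summed intensity of 26849 to 38507 in IlrunKO livers and 38960 to 42254 in WT livers. Kupffer cell and macrophage markers were above 0 for 11 of 12 (median 0.41, 0 passing). At an unadjusted p under 0.05 (limma), 5 of them were higher and 1, Cd163, was lower. Their median was below 0 on array 1, at -0.25, and 0.83, 0.46 and 0.56 on arrays 2 to 4. Their sums were 36591 to 54885 in IlrunKO livers and 28365 to 45409 in WT livers. Neutrophil markers (3 above and 4 below 0, median -0.06) and red cell precursor markers (1 above and 3 below 0, median -0.16) gave 0 passing, with 1 in each list at an unadjusted p under 0.05 (limma). The part of cell composition in the values of the members was not tested.

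**Figure D5:**
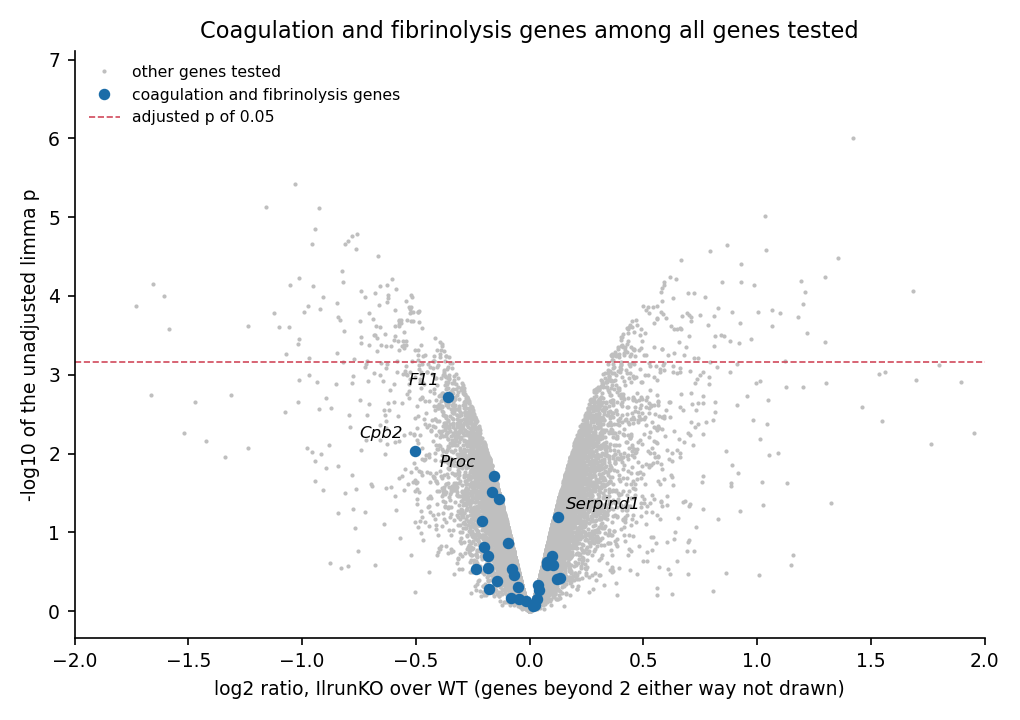
Fitted log2 ratio of IlrunKO over WT (x axis) against the -log10 of the unadjusted limma p (y axis) for all genes tested (grey) and the 31 members (blue). The dashed line marks an adjusted p of 0.05, which no member reaches. F11 and Cpb2 come nearest.

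Other genes of haemostasis were taken from lists of neighbouring functions. Of 34 further protease inhibitors and regulators of clotting tested, 2 fell, 0 rose and 32 did not pass; 9 lay above and 25 below 0, with a median of -0.08. The 2 that fell were the murinoglobulins Mug1 and Mug2, broad protease inhibitors of mouse plasma related to alpha-macroglobulins. Mug1 levels were 16.75, 16.67, 16.35 and 16.42 in IlrunKO livers, against 16.99, 17.05, 17.11 and 17.10 in WT livers (log2 ratio -0.51, 1.43-fold, adjusted p = 0.0352). Mug2 levels were 15.91, 15.68, 15.37 and 15.53 in IlrunKO livers, against 16.31, 15.98, 16.01 and 16.27 in WT livers (log2 ratio -0.52, 1.44-fold, adjusted p = 0.0346). No IlrunKO liver reached the lowest WT liver for either gene. The 2 genes are near copies, so their probes may read each other's transcript and count as 1 finding. The call was kept in 7 of 15 alternative fits for Mug1 and 9 of 15 for Mug2, with both below 0 in all of them. Without array 3 or array 4 the adjusted p was 0.172 or 0.133 for Mug1 and 0.158 or 0.133 for Mug2, and without array 2 it was 0.0627 for Mug1. Not passing, Serpine2, which encodes an inhibitor of thrombin and plasminogen activators, lay at 0.86 (adjusted p = 0.121), above 0 on all 4 arrays.

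Of 12 genes that recycle vitamin K or help secrete clotting factors, 1 fell, 0 rose and 11 did not pass, with 6 above and 6 below 0. Cyp4f14 had levels of 12.93 to 13.12 in IlrunKO livers, against 13.89, 14.06, 13.79 and 13.61 in WT livers (log2 ratio -0.82, 1.76-fold, adjusted p = 0.0346). It is a fatty acid hydroxylase related to human CYP4F2, which in human liver clears vitamin K. The genotypes lay apart, and the call was kept in 10 of 15 alternative fits. Without array 3 its adjusted p was 0.153 and without array 4 0.118, while its log2 ratio stayed at -0.75 and -0.89.

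Receptors of thrombin and of spent clotting proteins gave 0 of 5 passing (3 at an unadjusted p under 0.05, limma). The thrombin receptor F2r lay at 0.31 (adjusted p = 0.077), with 0.59, 0.51, -0.02 and 0.14 on arrays 1 to 4. Liver transcription factors gave 0 of 17 passing (6 at an unadjusted p under 0.05, limma), with 8 above and 9 below 0. Among them Rora, a nuclear receptor, lay at -0.29 (adjusted p = 0.061), with -0.15, -0.14, -0.44 and -0.45 on arrays 1 to 4, and Onecut1, a hepatocyte homeobox factor, at -0.27 (adjusted p = 0.120).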

How the data were processed

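Each of 4 two-colour arrays (positions in mm9) paired an IlrunKO with a WT liver, genotype and dye being taken from the labels. The authors deposited scanner output with raw and processed intensity and the Cy5 to Cy3 ratio as log10, all from Feature Extraction (per the file headers, version 10.10.1.1). The deposited table holds log2 ratios of IlrunKO over WT, as checked against the scanner ratios. It was made with limma, per the submitters' processing notes, whose version and settings the sources used here do not give.

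Raw intensity was corrected by normexp (offset 50) and normalised by loess within each array with limma 3.58.1 in R 4.3.3. Levels per liver are log2 intensities after further scaling between arrays (Aquantile). The brightest probe stood for a gene, and a gene was tested where that probe passed Feature Extraction's background flag in 3 or more of the 4 channels of either genotype and had a ratio on 3 or more arrays. The test was limma (lmFit, eBayes) with genotype and dye terms, two-sided, adjusted by Benjamini-Hochberg over 19655 genes. "Rose" and "fell" mean an adjusted p under 0.05. Precision is limited by there being 4 arrays. The fit was tested on simulated data. All arrays shared 1 slide. No set test was run. The members, their roles and all lists were chosen with earlier results of these data known, and the alternatives for Mug1, Mug2 and Cyp4f14 were added after their call was seen. All 35 members were to be described, in full where they passed, were among the 12 smallest p or carried a role alone; from other lists, genes that passed or up to 3 with the smallest p. Alternatives changed the dye term, background correction, normalisation, filter, probe rule, variance model, array weights, input values and the arrays used.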

Additional observations from a re-analysis of the deposited data

Results flagged for a closer look

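For Plaur, the urokinase receptor gene, array 2 lay far from the other 3 arrays, with a log2 ratio of 0.177 against -0.14, -0.17 and -0.15 on arrays 1, 3 and 4. The gap passed a cutoff that about 1 in 20 groups of 4 values would pass by chance, and 31 members were examined.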

How the results depend on the processing

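No coagulation or fibrinolysis gene passed in 14 of the 15 alternatives. The exception was the fit without array 2, in which 251 of 19655 genes passed. Leaving out 1 array thus gave 0 to 3 of 31 members past the threshold. Of 31 members, those at an unadjusted p under 0.05 (limma) numbered 3 with a normexp offset of 0, against 5 in the reported fit. They numbered 2 (without array 3) to 10 (without array 2) when 1 array was left out. The share over all genes was 20.1% with an offset of 0, 20.5% in the reported fit, 14% without array 3 and 16.1% without array 2. Leaving out 1 array gave medians of -0.131 to 0.0394 for the members, -0.131 to 0.0913 for anticoagulant, -0.104 to 0.0353 for procoagulant and -0.127 to 0.0791 for fibrinolytic genes, all above 0 without array 1; the fibrinolytic median was also above 0 without array 4 (0.0023). With median centring the member, procoagulant and fibrinolytic medians were -0.195, -0.194 and -0.113, against -0.0711, -0.0666 and -0.0240 in the reported fit. The median over all genes was -0.0501 with median centring and -0.00143 in the reported fit. The called genes Mug1, Mug2 and Cyp4f14 stayed below 0 in all 15 alternatives. No member was called in the reported fit, and members did turn in sign. F9 and Plg kept their direction in 11 of the 15, and Fgg and Serpina10, which passed without array 2, lay above 0 without array 1. Over all genes, 270 calls became 0 with a trended and robust variance, 1 with median centring and 1 without array 3 or without array 4, 75 without background correction, 61 with the processed signals and 449 with the deposited values. Fits without an array rest on 1 residual degree of freedom. They keep the dye term, so the array left in 1 dye orientation weighs as much as both arrays of the other. Each ratio compares 1 IlrunKO with 1 WT liver, so the reported fit is already paired. Dim probes limit F13a1, Plat, Plau and Serpina5. The ratios of Plaur, Procr and Tfpi, tested on dim probes, also depended on the offset. With a normexp offset of 0 they were -0.12, 0.13 and -0.21, against -0.07, 0.08 and -0.16 in the reported fit.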
